A study of Rattus norvegicus with 34 samples.

Results

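Tgfb1, Tgfb2 and Timp1 are 3 of the 44 genes whose mRNA was measured by quantitative PCR on microfluidic cards in whole rat retina. They were chosen by name, as the ligands of the TGF-beta family on the cards and the one inhibitor of metalloproteinases there. The cards also held 4 reference genes, 18S, B2m, Mrpl19 and Ywhaz, and 41 of the 44 genes had enough values to be tested between groups. All 3 members were tested, and each had a value in every retina analysed.

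The study asked how liposomes filled with clodronate, a drug used to act on phagocytes, change a degenerating retina. The 23 rats compared here fell into 4 groups, all killed at 9 weeks of age. SD were 6 Sprague Dawley rats without injection, the healthy reference. PKD were 6 male homozygous transgenic rats, strain PKD2(HA-1/703-CMV-247), which overexpress a truncated polycystin-2 with an HA tag from a CMV promoter and whose photoreceptors degenerate. PKD + Clodronate were 5 such rats that received 3 µl of clodronate liposomes into the vitreous at 4 and again at 8 weeks. PKD + Controlliposomes were 6 such rats with liposomes free of clodronate on the same schedule. Because the SD rats compared here were not injected, genotype and injection cannot be told apart when an injected group is set against SD. The sample labels also list SD + Clodronate and PKD + PBS retinas, but no column of values could be tied to these groups, and they were not analysed. The CMV promoter is not specific to a retinal cell type, and where the transgene acts was not measured here.

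TGF-beta ligands are secreted in a latent form, are activated outside the cell and signal through paired serine/threonine kinase receptors to SMAD proteins. Tgfb1 encodes the ligand best known from immune cells, microglia and platelets, and Tgfb2 the ligand typical of neural tissue and glia. In the retina this family is known for keeping microglia quiescent and for pericyte and endothelial maturation. Timp1 encodes tissue inhibitor of metalloproteinases 1, a secreted protein that blocks matrix metalloproteinases and is a well known gene of reactive astrocytes and other injured tissue.

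In GRCr8, the rat assembly of the RefSeq table used for annotation, Tgfb1 lies at chr1:90324312-90340627, Tgfb2 at chr13:100691540-100793227 and Timp1 at chrX:3766509-3772578. Letters that AP-1 and STAT factors are known to bind, TGANTCA and TTCNNNGAA, did not occur on either strand in the 300 bases around the start of any of the 3 genes, and were held by 7.33% and 8.87% of all 33469 promoters of that length. The variant TGAGTAA, held by 2.9% of them on either strand, occurred once, in Timp1, 108 bases before the start listed in the table, a start that lies within the annotated span of the gene. Other letters searched were AGGAAG of ETS factors, with 2 matches in Timp1 and 1 in each ligand (34.5% of all promoters hold it), CAGAC of SMAD proteins, with none in the 3 genes (50.1%), and the GC box GGGCGG, with 1 in Timp1 and none in the ligands (33.1%). The stretch with TGAGTAA is shown because Timp1 is the member whose level differed between groups, and the capitals mark that variant; it is read on the minus strand at chrX:3771212-3771241. The cards measured no binding, so the match is a description of the letters only.
Timp1: cagtgggtggaTGAGTAAtgcgtccaggaa

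Expression is given as minus delta Cq, the mean quantification cycle (Cq) of the 4 reference genes minus the Cq of the gene, relative to the mean of SD. It is a log2 scale, on which 1 unit is a doubling and 0 is the SD mean. The members were well within the range of the assay, with Cq values of 21.54 to 23.53 for Tgfb1, 18.39 to 21.29 for Tgfb2 and 20.42 to 23.38 for Timp1, against a limit of 40 cycles. Cq values of different assays are not compared. Whole retina was used, so fewer cells of a type and less RNA per cell cannot be told apart. Microglial and glial markers were detected in every retina, 7 of 7 and 3 of 3.

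Timp1 was the member that differed between groups. By limma it was higher in both liposome groups than in SD, 2.89-fold in PKD + Controlliposomes and 2.19-fold in PKD + Clodronate. The call in PKD + Clodronate was not stable. It was lost by the exact permutation test (adjusted p = 0.135) and without 18S among the reference genes (limma adjusted p = 0.0594). It was also lost in 5 of 11 fits that left out a rat. Both calls were lost when the mean of the specific genes replaced the reference genes. The mean of Timp1 in uninjected PKD rats lay between SD and the liposome groups, at 1.64-fold, without passing the test. Tgfb1 and Tgfb2 did not pass the test in any of the 6 comparisons between groups.

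In SD, Timp1 was −1.47, −0.55, 1.98, 0.35, −0.06 and −0.24 in rats 1 to 6, numbered within the group, a spread with a standard deviation of 1.15. In PKD it was 0.34, 0.12, 1.08, 0.30, 1.36 and 1.08, with a mean of 0.72 ± 0.52 (standard deviation, n = 6). One SD retina, rat 3, stood 1.98 above the mean of its group and above every PKD retina, while the other 5 SD retinas did not exceed 0.35.

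In PKD + Clodronate, Timp1 was 0.52, 1.22, 0.62, 1.30 and 1.99, with a mean of 1.13 ± 0.593 (standard deviation, n = 5). In PKD + Controlliposomes it was 1.62, 0.90, 1.97, 0.93, 1.62 and 2.13, with a mean of 1.53 ± 0.514 (n = 6). All 11 injected retinas were above the SD mean and above the 5 lower SD retinas, but because of SD rat 3 neither group was separate from SD. Groups did not overlap for 22% of the tested genes between PKD + Clodronate and SD, 29.3% between PKD + Controlliposomes and SD and 14.6% between PKD and SD, and for 2.44%, 7.32% and 4.88% in the comparisons of PKD + Clodronate with PKD, PKD + Controlliposomes with PKD and the liposome groups with each other. None of these genes was a member. The order of the means was SD, PKD, PKD + Clodronate and PKD + Controlliposomes, and no neighbours in this order passed the test.

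**Figure D1:**
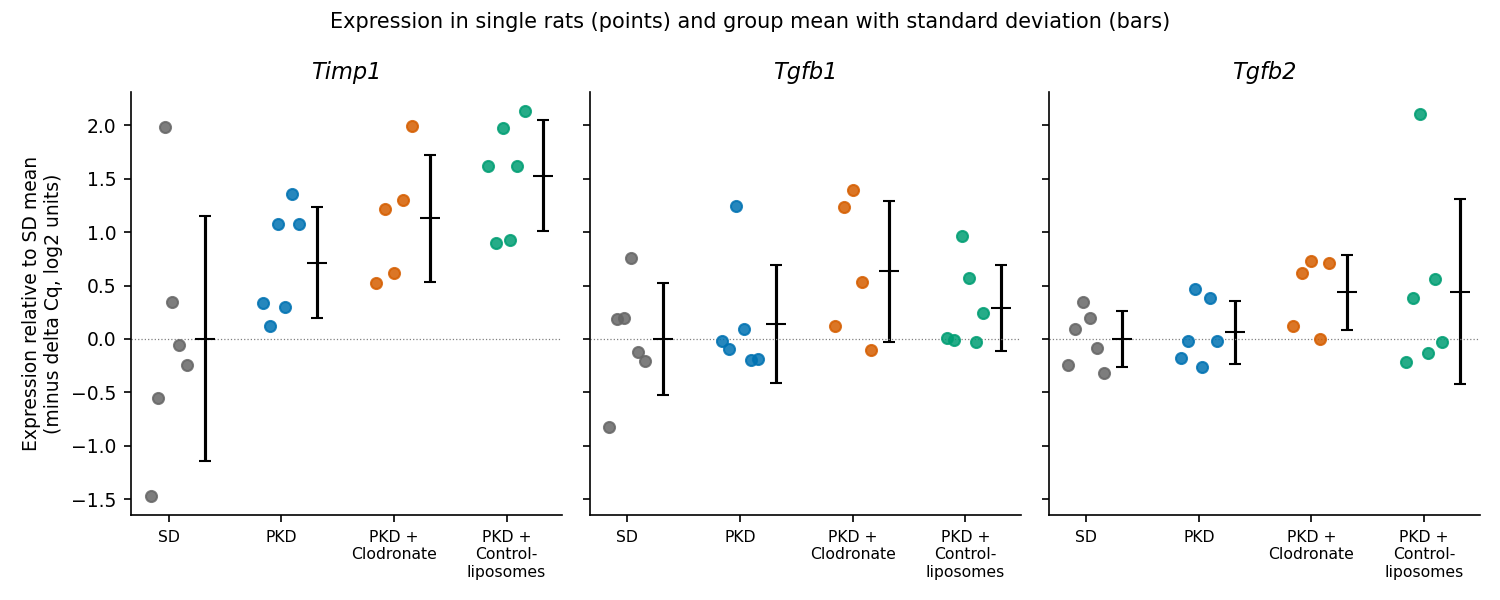
Expression of Timp1, Tgfb1 and Tgfb2 in each retina (1 point per rat), as minus delta Cq in log2 units relative to the SD mean, in the 4 groups; bars are the group mean with its standard deviation. SD rat 3 lies at 1.98 for Timp1, and single high retinas appear at 1.24 for Tgfb1 in PKD and at 2.10 for Tgfb2 in PKD + Controlliposomes.

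Against SD, Timp1 was higher in PKD + Controlliposomes by 1.53 log2 units (standard error 0.404, 95% confidence interval 0.70 to 2.36), a difference that passed the test (limma, adjusted p = 0.00194). The two-sided exact permutation test of the same rats gave p = 0.0173, and 0.0323 after adjustment over the 41 genes. In this comparison 63.4% of the tested genes were called, 56.1% as higher (23 higher and 3 lower). When the mean of the 40 specific genes found in every retina replaced the reference genes, the split was 8 higher and 17 lower, and Timp1 was 0.48 above SD and did not pass (limma adjusted p = 0.198). Over all tested genes the median difference was 0.75 with the reference genes. Which scaling is nearer to the RNA of a retina was not tested. With the reference genes the fold change of Timp1 was 2.89 with an interval from 1.62 to 5.14.

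Timp1 was higher in PKD + Clodronate than in SD by 1.13 log2 units (standard error 0.424, interval 0.26 to 2.0, limma adjusted p = 0.0271). Here 51.2% of the tested genes were called, 46.3% as higher. The exact permutation test gave p = 0.0758 (adjusted p = 0.135) and did not pass, while an ordinary linear model over the 4 groups kept the call (adjusted p = 0.0451). It was also lost when limma was fitted to these 2 groups alone (adjusted p = 0.08) and without 18S among the reference genes (0.99, limma adjusted p = 0.0594).

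PKD rats had a Timp1 level 0.72 log2 units above SD (standard error 0.404, interval −0.12 to 1.55), which did not pass (limma adjusted p = 0.173, exact permutation p = 0.206), although 6 of 6 PKD retinas were above the SD mean. For comparison, 36.6% of the genes tested were called between PKD and SD, 34.1% as higher, and the median change over all of them was 0.44. The result depended on single SD retinas. Without SD rat 3 the difference was 1.11 and passed (limma adjusted p = 0.00771). The difference of PKD + Clodronate became 1.53 (limma adjusted p = 0.000608). That of PKD + Controlliposomes became 1.93 (limma adjusted p = 2.35e-05). Without SD rat 1, the lowest at −1.47, the PKD difference fell to 0.42 and did not pass (limma adjusted p = 0.44). PKD + Clodronate, at 0.84, then lost its call (limma adjusted p = 0.0832). PKD + Controlliposomes, at 1.24, kept it (limma adjusted p = 0.00735). SD rat 3 was not among the single retinas flagged below as standing far from their group. SD rat 3 was also the highest of its group for the genes most like Timp1, with 1.83 for Socs3, 2.73 for Edn2 and 1.30 for Chi3l1, and for Gfap, at 1.80. These genes were picked by their likeness to Timp1 over the same retinas, SD rat 3 among them, so this is no independent sign. Without SD rat 3 the r of Timp1 with Socs3, Edn2 and Chi3l1 was 0.51, 0.49 and 0.37. Without SD rat 3, 17 genes in place of 15 were called between PKD and SD.

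**Figure D2:**
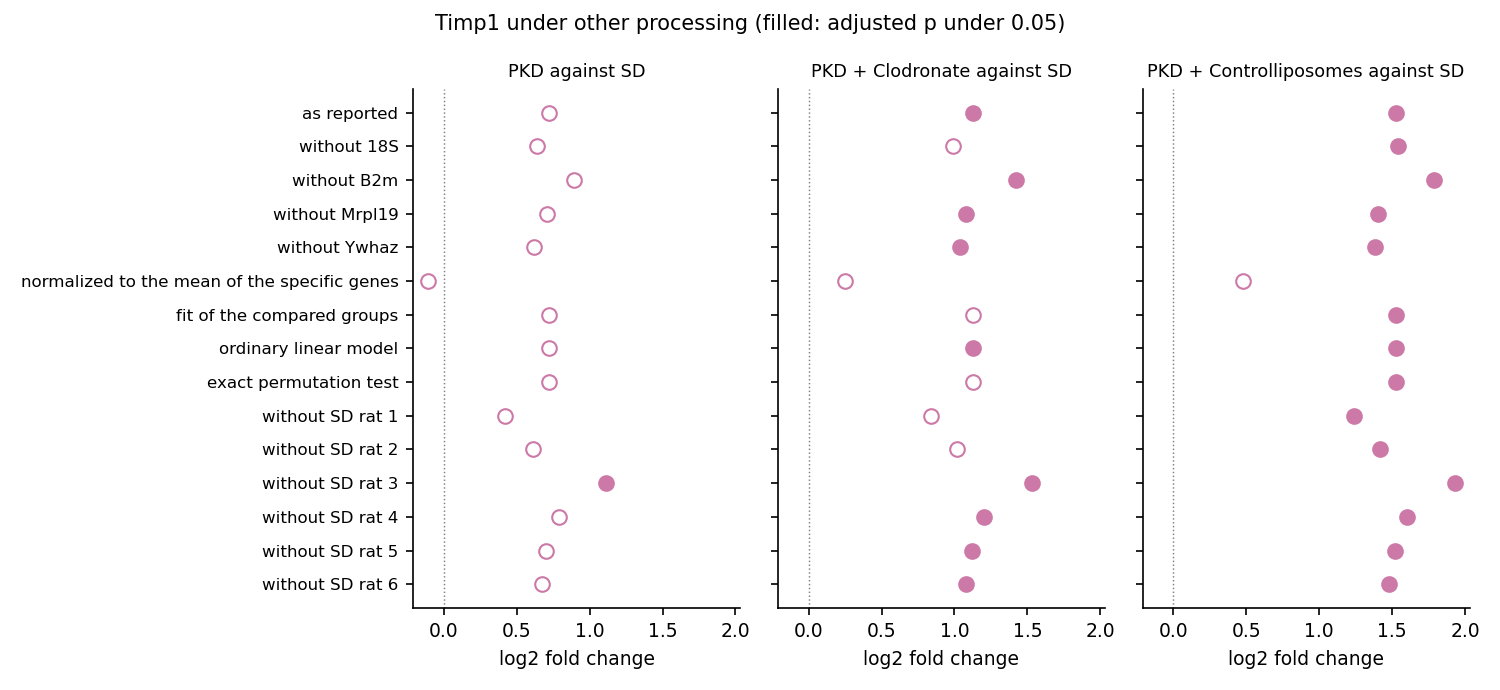
Log2 fold change of Timp1 in PKD, PKD + Clodronate and PKD + Controlliposomes against SD (x axis), with filled points where the threshold was passed. The y axis lists the processing as reported, other reference sets, other fits and tests, and leaving out each SD rat. Fits that left out a rat of a PKD group are not drawn, nor is the fit of genes with a Cq in every rat. Points for PKD + Controlliposomes stay filled except where the mean of the 40 specific genes present in every retina replaced the reference genes, those for PKD are filled only without SD rat 3, and the lowest point, −0.11, is that of PKD with that mean.

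Among the 3 PKD groups, Timp1 in PKD + Controlliposomes was 0.81 log2 units above PKD (standard error 0.404, interval −0.02 to 1.65), with 4 of 6 retinas above the highest PKD retina. This did not pass after adjustment (limma adjusted p = 0.25, exact permutation p = 0.026 before and 0.124 after adjustment), and 2.44% of the genes were called in this comparison. PKD + Clodronate was 0.41 above PKD (interval −0.46 to 1.29, limma adjusted p = 0.63) and PKD + Controlliposomes 0.40 above PKD + Clodronate (interval −0.47 to 1.27, limma adjusted p = 0.6). Limma called none of the 41 genes between PKD + Clodronate and PKD (0% of those tested), where 5 had an unadjusted p under 0.05, the exact permutation test also called 0 and normalization to the specific genes gave 2 calls, and it called 4.88% between the liposome groups. The intervals still include a change of more than 2-fold in Timp1.

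Tgfb1 was −0.82, 0.19, 0.20, 0.76, −0.12 and −0.21 in the SD retinas and −0.02, −0.09, 1.24, 0.09, −0.20 and −0.19 in PKD. Apart from PKD rat 3, the PKD retinas lay within 0.20 of the SD mean. The group means differed by 0.14 (interval −0.49 to 0.77, limma adjusted p = 0.812), and without PKD rat 3 or without SD rat 1 the difference turned to −0.081 and −0.025.

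In PKD + Clodronate, Tgfb1 was 0.12, 1.23, 1.39, 0.53 and −0.10, with the highest standard deviation (0.659) and the highest mean (0.63) of the 4 groups. In PKD + Controlliposomes it was 0.01, −0.01, 0.96, 0.57, −0.03 and 0.24, with a mean of 0.29. Neither was called against SD: the difference was 0.63 for PKD + Clodronate (interval −0.03 to 1.30, limma adjusted p = 0.112) and 0.29 for PKD + Controlliposomes (interval −0.34 to 0.92, limma adjusted p = 0.437). The first depended on the processing and on single retinas. It passed without B2m among the reference genes (0.92, limma adjusted p = 0.0458), without SD rat 4 (0.79, limma adjusted p = 0.0425) and without PKD + Clodronate rat 5 (0.82, limma adjusted p = 0.0449). It was 0.45 without PKD + Clodronate rat 3 (limma adjusted p = 0.293) and turned to −0.25 with the mean of the specific genes (limma adjusted p = 0.428). Against PKD, the PKD + Clodronate group was 0.49 higher (interval −0.17 to 1.16, limma adjusted p = 0.472), and the liposome groups differed by −0.34 (interval −1.0 to 0.32, limma adjusted p = 0.6).

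Tgfb2 was −0.24, 0.09, 0.35, 0.20, −0.08 and −0.32 in SD and −0.18, −0.02, 0.47, −0.26, 0.38 and −0.02 in PKD. PKD rats 3 and 5 lay above the highest SD retina and the other 4 within the SD range, and the means differed by 0.06 (interval −0.55 to 0.67, limma adjusted p = 0.9). Over SD retinas the standard deviation of Tgfb2 was 0.258, against 0.529 for Tgfb1 and 1.15 for Timp1.

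In PKD + Clodronate, Tgfb2 was 0.12, 0.62, 0.73, 0.00 and 0.71, and 3 of 5 retinas were above the highest SD retina. The difference from SD was 0.44 (interval −0.21 to 1.08, limma adjusted p = 0.243). The exact permutation test gave p = 0.0476, which became 0.093 after adjustment over the 41 genes. In PKD + Controlliposomes it was −0.22, 0.38, 2.10, −0.13, 0.56 and −0.03, also 0.44 above SD in the mean (limma adjusted p = 0.197). This second mean rested on rat 3, at 2.10, and was 0.11 without it. Between the liposome groups Tgfb2 differed by 0.01 (interval −0.63 to 0.65, limma adjusted p = 0.982), and by −0.32 without that retina.

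**Figure D3:**
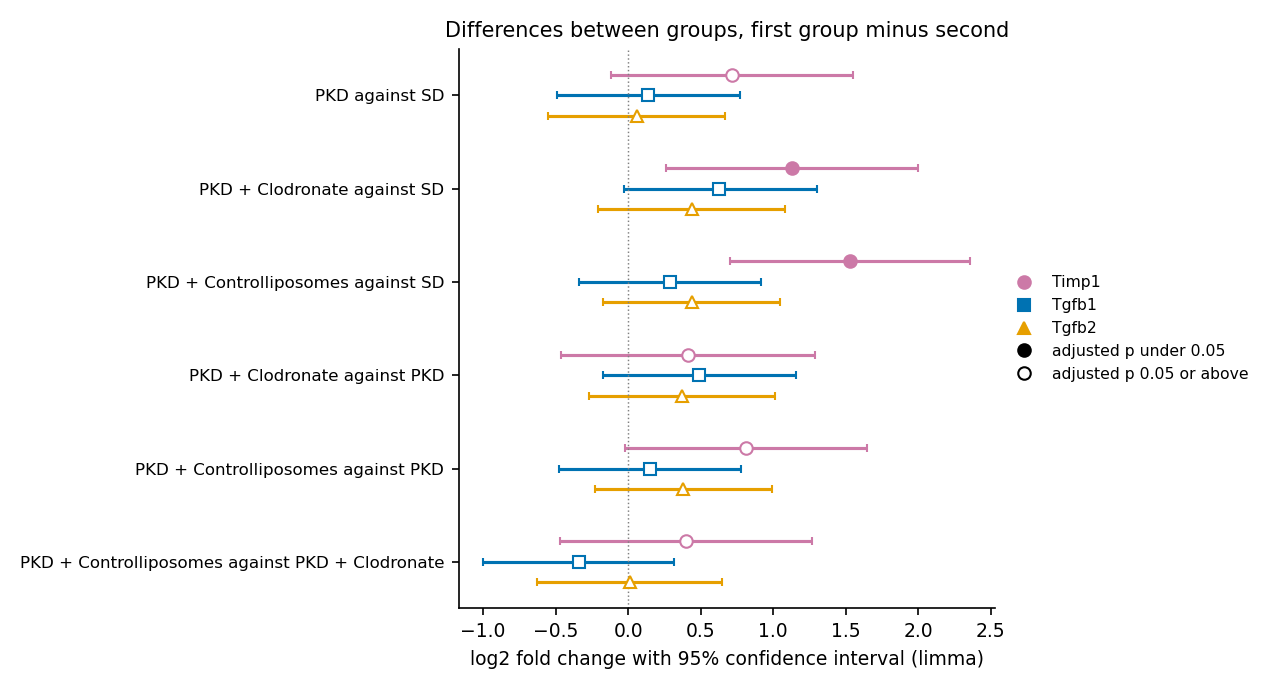
Log2 fold change (x axis) with its 95% confidence interval for Timp1, Tgfb1 and Tgfb2 in the 6 comparisons between groups (y axis, first group minus second). Filled symbols passed the threshold, which only Timp1 did, at 1.13 for PKD + Clodronate and 1.53 for PKD + Controlliposomes against SD.

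The choice of reference genes bore on the ligands. B2m, itself an immune gene as the light chain of MHC class I, had a mean minus delta Cq of 0.52 in PKD, 0.86 in PKD + Clodronate and 0.78 in PKD + Controlliposomes relative to SD. B2m is part of the reference mean, which makes these values smaller. In the same order Ywhaz was at −0.29, −0.27 and −0.45, 18S at −0.22, −0.43 and 0.04 and Mrpl19 at −0.01, −0.16 and −0.38. Across the 23 retinas the raw Cq of Tgfb1 followed that of B2m (Pearson r = 0.77) and ran against that of 18S (r = −0.59), a description over retinas that share card and input. The minus delta Cq of Tgfb1 had r = 0.83 with the Cq of 18S, which enters it as part of the reference mean. Relative to Mrpl19 and Ywhaz alone, and after removing group means, r was 0.74 with B2m and −0.50 with 18S. For Timp1 the same values were 0.29 and 0.23. When the mean of the 40 specific genes replaced the reference genes, both ligands lay below SD in the 3 PKD groups, at −0.25 to −0.76, and Timp1 lay at −0.11, 0.25 and 0.48 and did not pass. This scaling shifted each member by the same amount within a comparison, and which scaling is nearer to the RNA of a retina was not tested. The 3 retinas with the highest 18S Cq were PKD + Clodronate rats 3 and 2 and PKD rat 3, at 8.61, 7.84 and 8.15 cycles. They were also the 3 with the highest minus delta Cq of Tgfb1, which a high 18S Cq raises through the reference mean. By raw Tgfb1 Cq, PKD rat 3 at 22.21 came after PKD + Controlliposomes rat 3 at 21.96, PKD + Clodronate rat 1 at 22.16 and SD rat 4 at 22.2. The part of RNA input or 18S in this was not tested.

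Differences between members are free of the reference genes, since these cancel within a retina. Timp1 minus Tgfb1, set to 0 in the SD mean, was 0.58 ± 0.678 in PKD, 0.50 ± 1.06 in PKD + Clodronate and 1.24 ± 0.577 in PKD + Controlliposomes (standard deviation, n = 6, 5 and 6). Timp1 minus Tgfb2 was 0.65 ± 0.346, 0.69 ± 0.601 and 1.09 ± 0.84. The ligands relative to each other stayed near SD, with Tgfb2 minus Tgfb1 at −0.08, −0.20 and 0.15. So the means of Timp1 lay above both ligands in the 3 PKD groups, with SD rat 3 at 1.78 and 1.63 for the differences from Tgfb1 and Tgfb2, above all but 2 of the 17 retinas of these groups in either difference.

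The gene most like Tgfb1 across retinas, on deviations from group means, was C5ar1, the receptor for complement fragment C5a on myeloid cells, with r = 0.83 (Spearman rho = 0.89, 23 retinas). It was followed by Igf1, an insulin-like growth factor, at 0.79 and Icam1, an adhesion molecule for leukocytes, at 0.75. These values changed little without the 2 retinas farthest from the median of Tgfb1, at 0.83, 0.72 and 0.75. They were lower without 18S among the reference genes. The 3 genes most like Tgfb1 were then C5ar1 at 0.72, the scavenger receptor Stab1 at 0.65 and Igf1 at 0.61. The median r with all other genes fell from 0.37 to 0.16. All genes share the reference mean of a retina, and the values are a description only.

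Timp1 was most like Socs3, a feedback inhibitor of STAT3 signalling (r = 0.75), Edn2, the ligand endothelin-2 (r = 0.74), and Chi3l1, a chitinase-like protein of reactive glia (r = 0.67). These rested on few retinas: without the 2 farthest ones r fell to 0.32, 0.45 and 0.42. Within the 17 retinas of the 3 PKD groups it was 0.20, 0.44 and 0.51. Tgfb2 was most like Fcgr2a, Il10 and Mrc1 (r = 0.59, 0.58 and 0.57), and these fell to 0.40, 0.18 and 0.34 without the 2 farthest retinas. Among themselves, the members had r = 0.46 for Tgfb1 and Tgfb2, 0.37 for Tgfb2 and Timp1, and 0.22 for Tgfb1 and Timp1, near the median r of Tgfb1, Tgfb2 and Timp1 with all other genes (0.37, 0.30 and 0.35). Without 18S among the reference genes the values were 0.21, 0.39 and 0.16. With group differences left in, the genes most like Tgfb1 were Pgf, C5ar1 and Fcgr2a (0.77, 0.77 and 0.76), those most like Tgfb2 were Fcgr2a, Mrc1 and Il1b (0.60, 0.58 and 0.58) and those most like Timp1 were Edn2, Gfap and Itgam (0.73, 0.72 and 0.71).

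**Figure D4:**
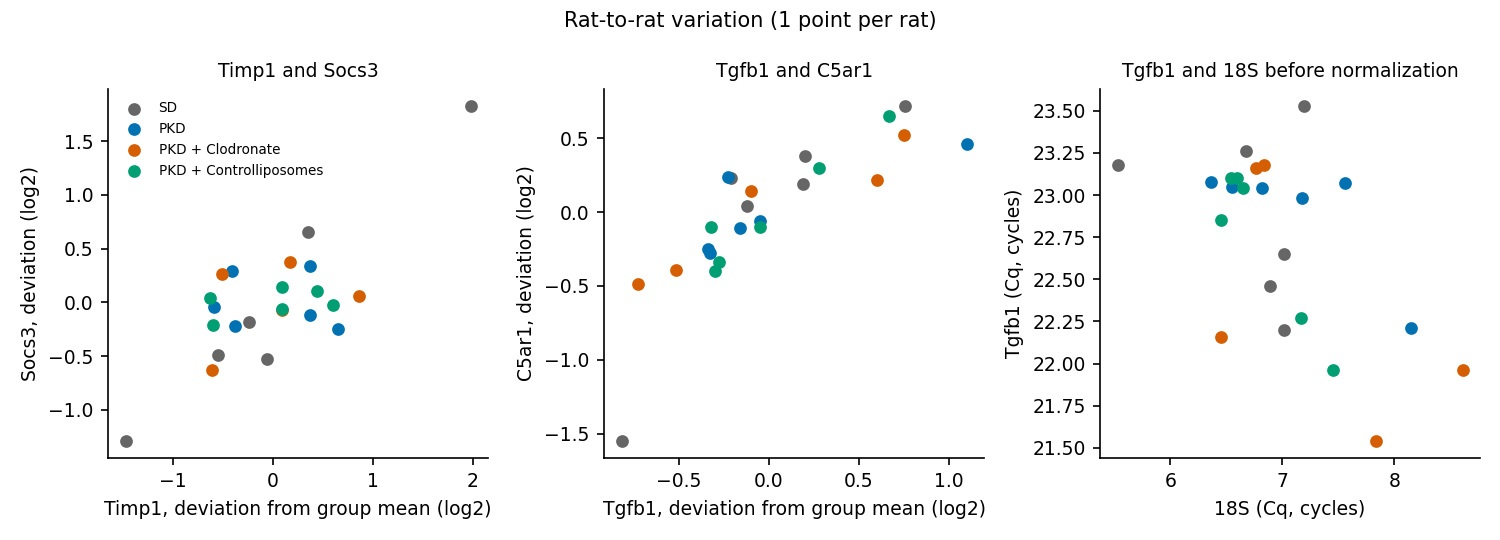
Left and middle, deviation from the group mean in log2 units for Timp1 against Socs3 and for Tgfb1 against C5ar1; right, Tgfb1 Cq against 18S Cq in cycles before normalization. Each point is 1 of 23 retinas, coloured by group; the Timp1 plot is stretched by 2 SD retinas, at −1.47 and 1.98, while the Tgfb1 points follow a line through all groups (r = 0.83).

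In a list of 7 other secreted factors on the cards, growth factors and the ligand Edn2, 3 rose between PKD and SD, 1 fell and 3 did not pass. Their median was 0.40 against 0.44 over all genes tested, of which 36.6% were called, 34.1% as higher. Edn2 rose 24.3-fold (limma adjusted p = 8.97e-09), the neurotrophic factor Fgf2 8.75-fold (limma adjusted p = 1.86e-09) and Cntf, a cytokine of the interleukin-6 family, 1.63-fold (limma adjusted p = 0.0129), but Cntf turned to −0.12 when scaled to the mean of the specific genes. Bdnf, a neurotrophin, fell by 0.81 on the log2 scale (limma adjusted p = 0.0121). Against SD, 4 rose and 1 fell in PKD + Clodronate, and 4 rose and 2 fell in PKD + Controlliposomes, beside 46.3% and 56.1% of all tested genes called higher. Cntf, one of the 4, turned to −0.18 and −0.27 in these groups with that scaling. Pgf, a ligand of the VEGF family, was among those that rose in both, 2.04-fold and 1.63-fold (limma adjusted p = 0.00884 and 0.0444), but was at 0.14 and −0.34 with the specific-gene mean.

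Of the 5 matrix and adhesion genes, 3 rose against SD in each of the PKD groups, the adhesion molecule Icam1, the galectin Lgals3 and Chi3l1, and the collagen receptor Mrc2 and the scavenger receptor Stab1 did not pass. With the mean of the specific genes, Icam1 was 0.23, 0.34 and 0.03, Lgals3 0.11 in PKD and 0.32 in PKD + Controlliposomes, and Chi3l1 0.54 and 0.43 in the liposome groups, and these did not pass. The median over the 5 was 0.93 in PKD, 1.23 in PKD + Clodronate and 1.08 in PKD + Controlliposomes, against 0.44, 0.63 and 0.75 over all tested genes. In the list of 6 genes of the STAT3 and interleukin-6 axis, 5, 5 and 6 rose, where 34.1%, 46.3% and 56.1% of all tested genes were called higher, with medians of 2.35, 2.47 and 2.73. Of this list, Gfap, Serpina3n and Lcn2 are also the reactive glia markers below. Cntf is also in the list of secreted factors above, so these rises are not separate results. With the mean of the specific genes, Cntf turned to −0.12, −0.18 and −0.27 and Il6 in PKD + Controlliposomes was 0.42 and did not pass. Of the 6 genes of alternative activation, which TGF-beta is often studied with, 3 could be tested, and none passed in any comparison by limma or by the exact permutation test after adjustment. Before adjustment, Il10 was under 0.05 between PKD + Clodronate and PKD by both tests, and Arg1 between PKD + Controlliposomes and SD by the permutation test. Between the PKD groups limma called no gene of these 4 lists. Unadjusted p values of limma under 0.05 were those of Fgf2, Lgals3 and Il10 between PKD + Clodronate and PKD and of Vegfa between PKD + Controlliposomes and PKD, and the exact permutation test called Fgf2 in the last comparison. By that test Socs3 and Pgf between PKD + Clodronate and PKD, Gfap between PKD + Controlliposomes and PKD and Edn2 between the liposome groups were also under 0.05 before adjustment.

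Of 7 microglia and macrophage markers, limma called 2, 2 and 4 higher than in SD in PKD, PKD + Clodronate and PKD + Controlliposomes, with medians of 0.49, 0.41 and 0.77, and 2 higher in PKD + Controlliposomes than in PKD + Clodronate. Over all tested genes 34.1%, 46.3% and 56.1% were called higher than in SD, with medians of 0.44, 0.63 and 0.75, and 4.88% between the liposome groups. So the calls of these markers against SD did not stand out from those of the other genes. The 2 called between the liposome groups, Aif1 and Itgam, were the only genes called there. Without B2m among the reference genes no gene was called between the liposome groups. Of 3 reactive glia markers, 3 were higher than in SD in each PKD group, and none was called between these groups by limma. The mean of the microglia markers ranged from −0.88 to 0.68 over SD retinas, 0.02 to 0.48 in PKD, −0.13 to 0.75 in PKD + Clodronate and 0.63 to 1.25 in PKD + Controlliposomes, the group with the highest Timp1. The mean of the 3 reactive glia markers ranged from −1.02 to 2.40 in SD, 2.50 to 3.61 in PKD, 2.16 to 3.35 in PKD + Clodronate and 2.72 to 4.21 in PKD + Controlliposomes, and SD rat 3 had the highest value of its group. Their part in the level of Timp1 was not tested. The cards held no marker specific to photoreceptors, endothelium or pericytes.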

How the data were processed

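The deposited table holds raw Cq values per well, exported by the authors from microfluidic TaqMan cards with 48 assays after 14 cycles of preamplification and up to 40 cycles on a ViiA 7; RNA had an integrity number above 7.5. A second deposited table holds the authors' own fold changes and was not used. Wells and columns were named through the gene and sample sheets given with the study, all 48 wells by equal Cq values (tolerance 0.0002). The 11 columns of rats whose group those sheets do not name were not analysed here. Of 1104 wells of the 23 rats, 57 had no Cq, none of them a member's. Each retina is 1 rat.

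From the Cq values, minus delta Cq was computed against the mean of 18S, B2m, Mrpl19 and Ywhaz. Differences were tested with limma 3.58.1 (R 4.3.3; lmFit and eBayes over the 4 groups), adjusted by Benjamini-Hochberg over the 41 genes with at least 3 Cq values in each group (threshold 0.05), with a two-sided exact permutation test beside it. The code was tested on simulated data. The 3 comparisons against SD share its 6 rats. The number of rats limits the precision, and PCR yields no count of molecules. Alternatives were other reference sets, other fits and tests, and leaving out each rat. Named genes are the members, the 3 genes with the highest Pearson r to each, listed genes that passed, and the reference genes. The members and lists were chosen with earlier results of these data known.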

Additional observations from a re-analysis of the deposited data

Results flagged for a closer look

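A single retina stood far from the others in 2 of the 12 combinations of a member and a group, where chance gives about 0.6 (1 in 20). Tgfb1 in PKD rat 3 was 1.24, while the other 5 PKD retinas lay between −0.20 and 0.09. It was 0.95 without 18S among the reference genes, where the others lay between −0.34 and 0.14. Without B2m it was 1.56, where they lay between −0.13 and 0.17. With the mean of the specific genes it was 0.28 and the others lay between −1.07 and −0.54. Tgfb2 in PKD + Controlliposomes rat 3 was 2.10, while the others lay between −0.22 and 0.56. It was 1.87 without 18S, where the others lay between −0.29 and 0.67, and 2.58 without B2m, where they lay between −0.07 and 0.69. With the mean of the specific genes it was 0.70 and the others lay between −1.25 and −0.39. The search for single retinas was made with the 4 reference genes only, so whether a flag holds under other sets was not tested.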

How the results depend on the processing

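Over the 18 differences of the members, 332 of 369 alternative values kept their direction and their side of the threshold. Other fits and tests of the same values cannot change the direction. Only Timp1 in both liposome groups against SD was called to begin with, so for the other differences the same side means still not called. Scaling each retina to the mean of its 40 specific genes found in all rats, in place of the reference genes, shifted the median of all genes by −0.82, −0.88 and −1.05 in PKD, PKD + Clodronate and PKD + Controlliposomes against SD. With the reference genes 32, 29 and 34 of the 41 tested genes lay above SD in these groups, and that mean is built from such genes. This scaling lowered each member by the same amount within a comparison. A lower ligand under it cannot be told apart from the choice of scaling. Which scaling is nearer to the RNA of a retina was not tested. Calls against SD then split into 7 higher and 16 lower (23 in place of 15, which split 14 and 1), 9 and 13 (in place of 19 and 2), and 8 and 17 (in place of 23 and 3). Under it, the differences from SD were −0.68, −0.25 and −0.76 for Tgfb1, −0.76, −0.45 and −0.61 for Tgfb2, and −0.11, 0.25 and 0.48 for Timp1, in the same order. Tgfb1 and Tgfb2 were then lower and passed in PKD (limma adjusted p = 0.0227 and 0.016) and in PKD + Controlliposomes (0.012 and 0.0411), and Timp1 passed in no group. Tgfb1 between PKD + Controlliposomes and PKD became −0.073, and Tgfb2 between the liposome groups −0.16.

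Tgfb2 in PKD against SD became −0.009 without 18S and −0.034 without Ywhaz. Between the liposome groups it became −0.018, −0.066 and −0.05 without B2m, Mrpl19 and Ywhaz. Tgfb1 in PKD + Clodronate against SD passed without B2m, at 0.92. Timp1 there was 0.99 without 18S and 1.13 in a fit of the compared groups (limma adjusted p = 0.08) and by permutation (exact, adjusted p = 0.135), and did not pass. The cause was not tested. Genes called between PKD + Controlliposomes and PKD were 1, against 3 without 18S, 0 without each other reference gene, 5 with the specific genes or the compared groups alone, 2 by an ordinary linear model and 4 by permutation. Between the liposome groups they were 2, against 0 without B2m and 1 without Mrpl19, and between PKD + Clodronate and PKD 0, against 2 with the specific genes.

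Leaving out 1 rat at a time gave, against SD, −0.081 to 0.29, 0.45 to 0.82 and 0.13 to 0.44 for Tgfb1 in PKD, PKD + Clodronate and PKD + Controlliposomes. For Tgfb2 it gave −0.018 to 0.13, 0.36 to 0.55 and 0.11 to 0.57, and for Timp1 0.42 to 1.11, 0.84 to 1.53 and 1.24 to 1.93. Timp1 in PKD + Clodronate lost its call in 5 of 11 such fits, without SD rats 1 or 2 or PKD + Clodronate rats 2, 4 or 5 (limma adjusted p up to 0.0939), and in PKD + Controlliposomes it passed in 12 of 12. Tgfb2 in PKD turned to −0.0015 without SD rat 6, −0.018 without PKD rat 3 and −0.00032 without PKD rat 5, and Tgfb1 to −0.025 without SD rat 1. Between the liposome groups Tgfb2 ranged from −0.32 to 0.14, with −0.071 and −0.10 without PKD + Clodronate rats 1 and 4, and −0.017 without PKD + Controlliposomes rat 5. Genes called ranged from 0 to 1 between PKD + Controlliposomes and PKD, and from 0 to 3 between the liposome groups. Restricting the test to genes with a Cq in every rat, or an ordinary linear model, changed no call of a member. No paired analysis was possible because the columns carry rat numbers and not the replicate numbers of the labels.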
